A study of Mus musculus with 24 samples.

Results

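The response of wild-type (WT) dorsal root ganglia (DRGs) on day 5 after a sciatic nerve lesion was compared with WT control ganglia, over 8 of the 24 samples of a microarray study of the transcription factor NFIL3. The members were the 4 samples that the labels call WT day 5 and the 4 that they call WT day 0, with every non-control probe of the array. Both groups came from adult male C57BL/6J mice with intact Nfil3, littermates of a full Nfil3 knockout (KO) made with a CMV-Cre deleter. The left sciatic nerve was transected and its ends were joined with sutures, and the lumbar ganglia L4 and L5 were taken 5 days later. Control ganglia came from the non-injured side, so the animals' other side had been operated on, and which animals gave the control samples is not given in the sources used here. The other 16 samples were WT day 2, KO control, KO day 2 and KO day 5, 4 of each, and they entered here through the shared estimate of the spread and as values set beside those of WT day 5.

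The DRG holds the cell bodies of primary sensory neurons, each wrapped by satellite glia, with Schwann cells along the axons, blood vessels, connective tissue and resident macrophages. When the peripheral axon is cut, these neurons are known to switch on transcription factors such as ATF3, JUN and SOX11 together with growth-associated cytoskeletal and membrane proteins, and to lower many ion channels, receptors and transmitter genes of the uninjured state. Macrophages are known to gather in the ganglion in the days after such a lesion. The labels name the tissue DRG neurons, but all 16 genes of a Schwann cell myelin list and all 11 of a satellite glia list were well above background in all 8 samples, so the ganglia held their glia. In whole tissue, fewer cells of a type and less RNA per cell cannot be told apart.

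Expression is given as a log2 level, the log2 of the background-corrected and quantile-normalized spot brightness, and each of the 27398 genes named on the array is represented by its brightest probe. Of the 41174 probes, 54.6% to 67.7% were well above background in the WT control samples and 62.5% to 71.3% in the WT day 5 samples, and no spot was saturated. The lowest share, 54.6%, was that of WT control replicate 4, whose array also had 0.519% and 0.835% of its spots marked as outliers in its 2 channels against at most 0.166% on any other array. Correlations between replicates across probes, which are not independent, lay between 0.958 and 0.975 within the control group and between 0.961 and 0.971 within day 5. Each array carried 2 samples, one in each dye. WT control replicates 1 and 3 shared an array with a KO control, whereas replicate 2 shared one with a WT day 2 sample and replicate 4 with a WT day 5 sample.

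The control samples on arrays with a lesioned sample gave higher levels for several of the most induced genes. For Sprr1a the control levels were 5.83, 9.28, 6.12 and 11.68 in replicates 1 to 4, and for Npy they were 4.34, 7.85, 4.13 and 9.35, so that replicates 2 and 4 stood above 1 and 3 in both. Among the 26 genes that were at least 16-fold higher on day 5 in KO ganglia, which are samples of other mice, 20 were higher in WT controls 2 and 4 than in 1 and 3, with a median difference of 0.65 (22 of 26 and 0.74 without KO control replicate 4, whose labels are in doubt), while the median difference was 0.01 among the 452 genes that rose 2-fold to 4-fold there. Among the 243 genes at least 2-fold lower there, the median difference was -0.06, and for Anxa10 and Sox11 it was 0.06 and 0.16. KO control replicates 3 and 2, which entered the choice of these gene sets, shared an array with WT controls 1 and 3. The choice was therefore not independent of those arrays. The part of the shared array in these values was not tested, and changes against control replicates 1 and 3 alone are given with each gene where they differ from the change against all 4 by over 1.5 times. With those 2 as the only controls, some calls of list genes named below were lost, at adjusted p values by limma from 0.0565 to 0.303. They were those of C3, Cacna1c, Cacna1h, Cartpt, Ccnb2, Galr1, Gfap, H2-Aa, Kcnb2, Mx2, Ntf3, Oas1a, Oprm1, P2ry12, S100b, Sc4mol, Sst, Top2a, Ube2c and Xbp1. Other list members that are not named below, such as C4b, Fos and Cebpb, lost their calls too.

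**Figure D1:**
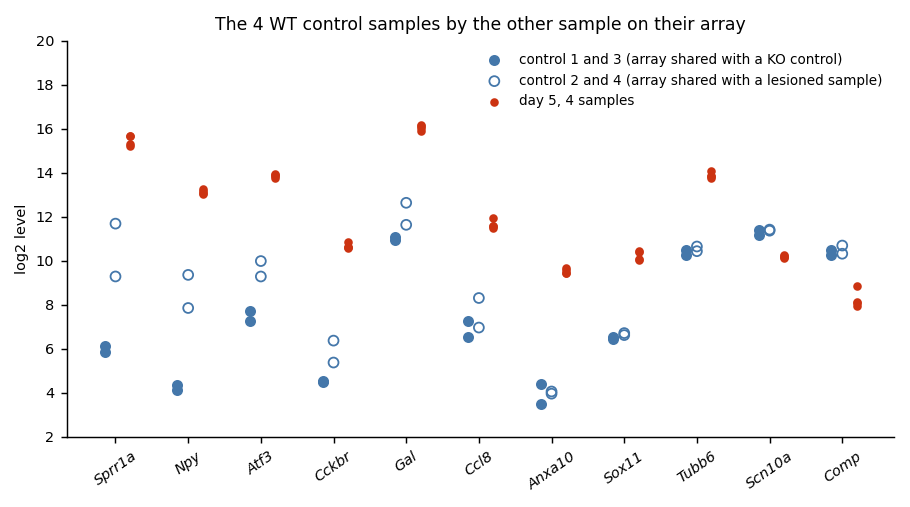
Log2 levels (vertical axis) of 11 genes in the 4 WT control samples and the 4 WT day 5 samples. Filled blue points are control replicates 1 and 3, open points replicates 2 and 4, and red points day 5. Open points lie above the filled ones for Sprr1a, Npy, Atf3, Cckbr and Gal, and beside them for Sox11, Scn10a and Comp.

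On day 5, 3798 genes (13.9% of 27398) differed from control at an adjusted p under 0.05 by limma, 1756 higher (6.41%) and 2042 lower (7.45%). The higher genes moved further. At least 2-fold, 661 genes were higher (2.41%) and 311 lower (1.14%), at least 4-fold 180 were higher and 8 lower, and at least 8-fold 58 were higher and none lower. With control replicates 1 and 3 as the only controls, 2384 genes passed, 1210 higher and 1174 lower. The 4 day 5 samples and the 4 controls did not overlap in 1657 of the 1756 higher genes and 1895 of the 2042 lower ones, and in 5427 of all 27398 genes. Compared within a dye or slide, the change of Sox11 was 3.65 in Cy3, 3.65 in Cy5, 3.59 on slide 1, which held 1 control and 2 day 5 samples, and 3.83 on slide 3, with 2 of each, while that of Sprr1a was 8.13, 6.36, 9.68 and 6.54.

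**Figure D2:**
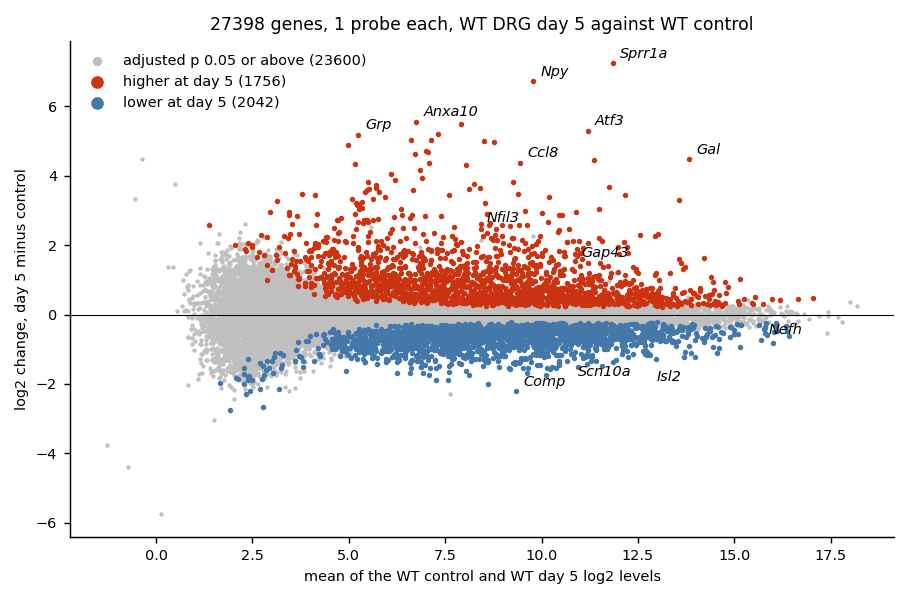
Log2 change on day 5 (vertical axis) against the mean log2 level of both groups (horizontal axis) for 27398 genes. Red points (1756) and blue points (2042) passed an adjusted p of 0.05, and the red points reach 7.24 for Sprr1a while Comp, at -2.21, is the lowest labelled gene.

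Nfil3 encodes a basic leucine zipper factor that mostly represses its targets, and it is the gene removed in the KO mice. Its brightest probe (chromosome 13 at 53062585 to 53062644, mm9) gave 8.44, 8.64, 8.51 and 9.01 in the 4 controls and 10.64, 10.95, 10.98 and 11.09 on day 5. The lowest day 5 sample, at 10.64, lay above the highest control, at 9.01. The change was 2.26 ± 0.81 (SE, n = 4 against 4) with an adjusted p of 0.076 by limma, which missed the threshold. This SE comes from all 24 samples, including the KO groups, in which the same probe read 2.94, 3.80, 4.37 and 7.59 in the controls and 5.81, 3.40, 5.66 and 2.82 on day 5. The library labelled KO control replicate 4, at 7.59 and well above background, stood apart from the other 3 KO controls, which were not, and lay nearest the WT controls. Its labels also disagree, with a title of control and a day field of 5. KO day 5 replicates 1 and 3, at 5.81 and 5.66, were well above background and shared an array with a WT day 5 sample. Replicates 2 and 4, at 3.40 and 2.82, shared one with a KO sample and were not. On day 2 the KO samples split in the same way, at 5.30 and 6.23 against 4.14 and 3.03. The part of the shared array in these values was not tested. Whether these probes lie in the deleted part of the gene is not given in the sources used here. Fitted on the 8 WT samples alone, the same change had an adjusted p of 2.43e-04, and a second probe passed in the fit of all samples, at 2.43 ± 0.56 with an adjusted p of 0.00523.

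The genes named as highest had a symbol, an adjusted p under 0.05, no overlap between groups and a level well above background in all 4 day 5 samples. Sprr1a, a small proline-rich protein of the cornified envelope that is also known as a marker of axon regrowth, changed most. Its levels were 15.68, 15.68, 15.32 and 15.20 on day 5, and the highest control, replicate 4, stood at 11.68. The change was 7.24 ± 1.11 (adjusted p = 1.32e-04), and 9.50 against controls 1 and 3. Npy, the vasoconstrictor and transmitter neuropeptide Y, rose from below background in 2 of 4 controls to 13.19, 13.02, 13.27 and 13.10, a change of 6.73 ± 0.96 (adjusted p = 5.83e-05), or 8.91 against controls 1 and 3. The control values of both genes spread over more than 5 log2 units, and those of day 5 over less than 1.

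Anxa10, an annexin that binds membrane phospholipids, was well above background in none of the 4 controls (3.50, 3.95, 4.39 and 4.05) and in all 4 day 5 samples (9.44, 9.67, 9.57 and 9.44). The plain fold change was 47.1 (adjusted p = 4.21e-12 by limma), from controls not well above background. The log2 change of Anxa10, 5.56, ran from 3.27 to 7.46 over 25 alternatives of processing and samples, and it passed in each. Grp, the gastrin-releasing peptide that signals itch in the spinal cord, likewise went from none of 4 to 7.71, 7.75, 7.97 and 7.87, at least 26.9-fold higher (adjusted p = 2.47e-07). Its log2 change of 5.19 was 5.68 against controls 1 and 3, and as low as 1.99 over the alternatives. Its lower bound, like the fold change of Anxa10, holds for the processing used here. Cckbr, the cholecystokinin B receptor, changed by 5.49 ± 0.42 (adjusted p = 1.64e-08), or 6.17 against controls 1 and 3. Atf3, the stress-induced transcription factor used as a marker of axotomized neurons, read 7.69, 9.28, 7.25 and 9.98 in control and 13.87, 13.74, 13.88 and 13.94 on day 5, a rise of 5.30 ± 0.50 (adjusted p = 2.84e-07) or 6.38 against controls 1 and 3. The 4 day 5 values of Atf3 were nearly equal, and its controls were not.

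The other genes among the 10 highest were Ucn, the stress peptide urocortin, at 5.21 ± 0.34 (5.82 against controls 1 and 3), Slc6a4, the serotonin transporter, at 5.04 ± 0.24, Gpr151, an orphan receptor, at 5.04 ± 0.22, and Wfdc3, a protein with protease inhibitor domains, at 4.99 ± 0.24. Their adjusted p values were 1.76e-09, 1.52e-11, 7.36e-12 and 1.58e-11. Ucn was well above background in 2 of the 4 controls and Slc6a4 and Gpr151 in 1 each, so their fold changes rest on control values near background. In KO ganglia, with their own controls, the changes of the 10 highest genes lay between 4.97 for Grp and 7.78 for Sprr1a, or between 5.20 for Ucn and 9.03 for Sprr1a without KO control replicate 4.

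ATF3, JUN and FOSL1 belong to the family of factors that bind the AP-1 element, and ATF3 and CREM also bind the related cyclic AMP response element (CRE). Both motifs were searched in the 250 bases before each RefSeq start site (GRCm38.p6), AP-1 as TGANTCA and CRE as TGACGTCA, each of which reads the same on both strands. No stretch of letters can match both at one position. AP-1 letters were in 6.75% and CRE letters in 1.55% of 32851 such windows. Counted per gene, with a match in any of its windows, the shares were 7.05% and 2.41% of the 15793 genes with a window. Of the 10 highest genes 9 had a window, and Sprr1a and Anxa10 held 2 AP-1 matches each and Ucn 1 CRE match. Of the 10 lowest genes 8 had a window, with no AP-1 match and 1 CRE match, in Pnpla3. Most of the genes named from the ends of the gene lists that had a window held neither motif. Among them, AP-1 letters were in Trem2 and Il6, which rose. They were also in the cholesterol synthesis genes Dhcr7 (-0.55) and Sc4mol (-0.38), which fell. CRE letters were in H2-Aa, which rose, and in Sstr2, Sst and Isl2, which fell. Matching letters are in capitals in the stretches below, from 3 of the strongest risers and from Sst, which fell. The other stretches, such as that of Pnpla3, are not shown. Sst holds the same CRE letters as Ucn:
Sprr1a, chr3:92485951-92486067, minus strand: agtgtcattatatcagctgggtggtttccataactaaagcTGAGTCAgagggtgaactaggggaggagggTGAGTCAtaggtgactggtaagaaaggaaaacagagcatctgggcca
Anxa10, chr8:62123194-62123413, minus strand: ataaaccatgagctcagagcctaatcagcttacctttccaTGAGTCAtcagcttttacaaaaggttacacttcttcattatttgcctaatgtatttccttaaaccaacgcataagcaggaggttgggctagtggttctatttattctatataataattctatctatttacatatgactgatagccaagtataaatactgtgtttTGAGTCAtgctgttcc
Ucn, chr5:31138896-31138979, minus strand: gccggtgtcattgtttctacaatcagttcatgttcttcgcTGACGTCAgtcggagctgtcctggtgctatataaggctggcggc
Sst, chr16:23890845-23890932, minus strand: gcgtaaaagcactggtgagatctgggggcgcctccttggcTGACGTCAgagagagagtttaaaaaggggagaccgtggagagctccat

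In Sprr1a the 2 AP-1 matches begin 146 and 116 bases before the start site, and in Anxa10 180 and 16 bases before it. The CRE match begins 44 bases before the start in Ucn and 48 in Sst. Atf3, Gal, Npy and Nfil3 had a window without either motif. A comparison of motif shares between all genes that moved and all others is void, since 71.1% of the genes at least 2-fold higher and 61.1% of those at least 2-fold lower had a window. A match is a description of letters and no evidence of binding.

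The 10 lowest genes among those with a symbol and a level well above background in all 4 controls changed by -1.65 to -2.21. Comp, a cartilage and tendon matrix protein, gave 10.51, 10.69, 10.28 and 10.32 in the controls and 8.83, 8.12, 8.06 and 7.95 on day 5, a change of -2.21 ± 0.25 (adjusted p = 3.49e-06). Cidea, a lipid droplet protein, changed by -1.99 ± 0.35 and Pnpla3, a lipase of lipid droplets, by -1.69 ± 0.21. Osta, an organic solute transporter subunit, changed by -1.89, Rasgrp1, an activator of Ras, by -1.75, Scin, an actin-severing protein, by -1.73 and Tpd52l1, of the tumour protein D52 family, by -1.65. The other 3 of the 10 encode subunits of ion channels. Htr3b, a subunit of the serotonin-gated 5-HT3 channel, read 8.02, 8.01, 7.99 and 7.74 against 6.11, 5.92, 6.66 and 6.14, Kcnmb1, a beta subunit of the large-conductance calcium-activated potassium channel, 7.92, 7.97, 7.55 and 7.64 against 5.98, 6.04, 6.44 and 5.88, and Dpp10, an auxiliary subunit of Kv4 channels, 10.68, 10.41, 10.23 and 10.51 against 8.82, 8.84, 8.85 and 8.60. An adjusted p under 0.05 by limma and no overlap between the groups were conditions for choosing these 10.

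**Figure D3:**
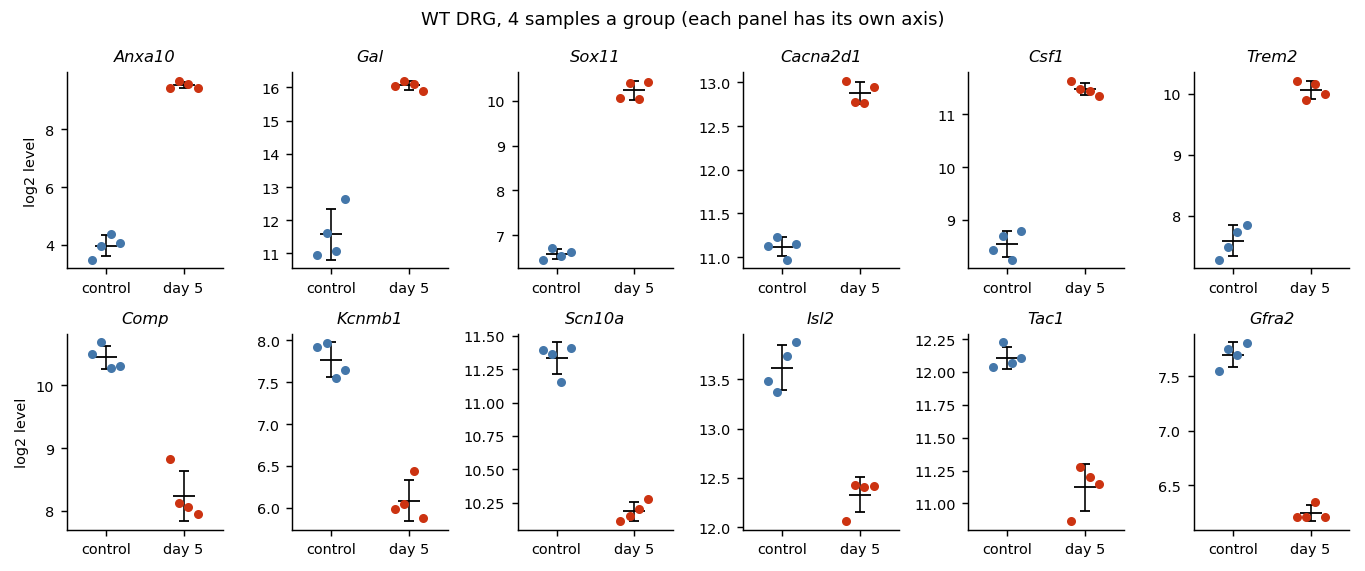
Log2 levels of 12 genes in the 4 WT control (blue) and 4 WT day 5 (red) samples, with the mean and SD in black and a vertical axis of its own in each panel. In all 12 genes the groups do not overlap, and for Gal the control sample at 12.63 is replicate 4.

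Among 21 injury-induced transcription factors, 13 rose and none fell, with a median change of 0.80 against -0.03 over all genes. For this list and all those below, the shares over all genes were 6.41% higher and 7.45% lower. Sox11, which drives neurite growth genes, read 6.46, 6.71, 6.54 and 6.62 in control and 10.07, 10.39, 10.03 and 10.43 on day 5, a rise of 3.65 ± 0.17 (adjusted p = 8.96e-12). Jun rose from 10.09, 10.24, 10.14 and 9.98 to 11.85, 11.97, 11.81 and 11.92, by 1.78 ± 0.12 (adjusted p = 4.42e-09). Both were tight within groups and far apart between them. Fosl1, an AP-1 partner of JUN, was well above background in none of the controls. Its plain fold change was 4.36 (adjusted p = 2.26e-05 by limma), and its log2 change ran from 0.64 to 3.46 over the alternatives. Crem rose by 1.48, Smad1, which carries BMP signals, by 1.24 and Klf6 by 1.24, all on the log2 scale. Beside Nfil3, the members Stat3, Egr1, Klf4, Klf7, Myc, Creb1 and Jund did not pass, with changes between 0.03 and 0.32. With controls 1 and 3 alone, 11 of the 21 passed.

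Of 30 axon growth and regeneration-associated genes, 20 rose and none fell (median change 0.96). Gap43, the growth-cone membrane phosphoprotein, went from 9.29, 9.56, 9.85 and 9.76 to 11.59, 11.86, 11.64 and 11.69, a rise of 2.08 ± 0.18 (adjusted p = 1.01e-07). Flrt3, a membrane adhesion protein, rose by 3.39 ± 0.15 and Stmn4, a stathmin that regulates microtubules, by 3.31 ± 0.15. Gadd45a rose by 2.96, Anxa1 by 2.86, Ecel1, an endopeptidase known from injured neurons, by 2.17, and the laminin-binding integrin subunit Itga7 by 2.11. For Tubb6, a tubulin, the brighter probe rose by 3.44 ± 0.19 and a second, dimmer probe fell by 0.56 ± 0.17 (adjusted p = 0.0311), so its probes disagreed. The cytoskeletal adaptors Dpysl2 (-0.40), Dpysl3 (0.07) and Stmn3 (-0.12) and the adhesion molecule L1cam (-0.01) did not pass.

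The 18 neuropeptide genes measured split in 2 directions, with 5 higher and 6 lower. Gal, the inhibitory peptide galanin, read 10.96, 11.63, 11.09 and 12.63 in control and 16.05, 16.19, 16.10 and 15.89 on day 5, a rise of 4.48 ± 0.30 (adjusted p = 2.58e-09), or 5.03 against controls 1 and 3. Nts, neurotensin, rose from 9.43, 9.06, 8.86 and 9.22 to 13.76, 13.64, 13.42 and 13.56, by 4.45 ± 0.19, with control replicates 2 and 4 between 1 and 3. Adcyap1, which encodes PACAP, rose by 1.48. Tac1, the substance P precursor, went from 12.03, 12.22, 12.07 and 12.11 to 10.87, 11.28, 11.20 and 11.15 (-0.98 ± 0.21, adjusted p = 0.00297, and -0.64 with an adjusted p of 0.248 when its probes were averaged), Calca, which encodes CGRP, from 16.82, 16.73, 16.66 and 16.71 to 15.99, 16.04, 16.41 and 15.96 (-0.63 ± 0.13, adjusted p = 0.00225), and Sst, somatostatin, by -1.39 ± 0.38, a call lost with controls 1 and 3 alone (adjusted p = 0.139). Nmb, Calcb and Cartpt fell by 1.08, 0.86 and 0.71. Vip, a peptide often named with Gal in injured ganglia, did not rise well above background in any of the 8 samples (change -0.28, adjusted p = 0.822).

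**Figure D4:**
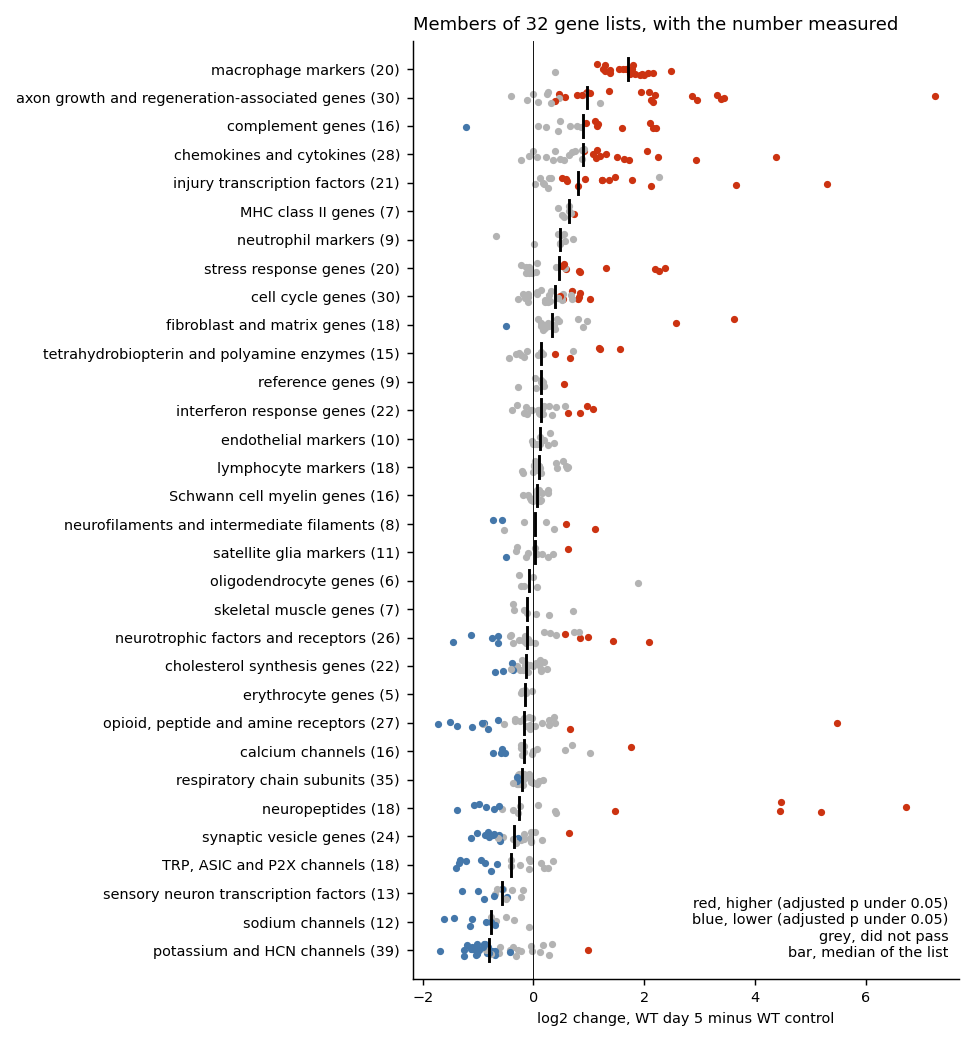
Log2 change on day 5 (horizontal axis) of every measured member of 32 gene lists, ordered by the list's median (black bar). Red and blue points passed an adjusted p of 0.05 and grey points did not. Macrophage markers lie highest, with a median of 1.71, and potassium and sodium channels lowest, with medians of -0.80 and -0.77.

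Of the ion channel genes that passed, nearly all fell, and many did not pass. None of 12 sodium channel genes rose and 7 fell (median change -0.77, against 7.45% of all genes lower). Scn10a, the tetrodotoxin-resistant channel Nav1.8 of nociceptors, went from 11.40, 11.36, 11.15 and 11.41 to 10.11, 10.15, 10.20 and 10.28, a change of -1.15 ± 0.22 (adjusted p = 9.88e-04). Scn11a, Nav1.9 of the same cells, changed by -1.43 ± 0.27. For Scn9a, Nav1.7, the change of -0.67 ± 0.25 did not pass (adjusted p = 0.0872), although its 4 day 5 samples (7.64, 7.49, 7.87 and 7.88) lay below the 4 controls (8.46, 8.42, 8.28 and 8.43), and it passed on the 8 WT samples alone (adjusted p = 0.0106). Scn3a, an embryonic channel, gave -0.77 (adjusted p = 0.547).

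Of 39 potassium and HCN channel genes, 23 fell and 1 rose (median change -0.80), and 12 fell at least 2-fold. They included the voltage-gated Kcna4 (-1.26 ± 0.26), Kcns3 (-1.26 ± 0.18), Kcnb2 (-1.19) and Kcna2 (-1.02), the Kv4 partner Kcnip2 (-1.12), the calcium-activated Kcnn2 (-1.12) and the sodium-activated Kcnt1 (-1.04). Kcnmb4, another beta subunit of the channel that Kcnmb1 modulates, rose from 10.94, 10.97, 11.16 and 11.16 to 12.03, 12.08, 12.10 and 11.95, by 0.98 ± 0.11 (adjusted p = 4.39e-06). The pore subunit of that channel, Kcnma1, gave 0.13 (adjusted p = 0.668). Of this channel, then, one beta subunit fell, the other rose, and the pore subunit had no call. Hcn2, a pacemaker channel of nociceptors, fell by 0.69, whereas Hcn3 and Hcn4 did not pass. With controls 1 and 3 alone, 17 fell and 1 rose.

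Cacna2d1, the alpha2delta-1 subunit that gabapentin binds, was the 1 calcium channel gene of 16 that rose, from 11.13, 11.23, 10.97 and 11.15 to 13.01, 12.78, 12.76 and 12.95, by 1.76 ± 0.13 (adjusted p = 7.48e-09). All 3 of its probes passed in this direction. Its paralog Cacna2d3 fell by 0.58, as did Cacnb4 by 0.74, Cacna1h, the T-type Cav3.2, by 0.57 and Cacna1c by 0.51. The N-type pore gene Cacna1b gave -0.01 and did not pass. Of 18 TRP, ASIC and P2X channel genes, 8 fell and none rose. Trpa1, the irritant sensor, went from 7.96, 7.98, 7.78 and 7.91 to 6.30, 6.50, 6.98 and 6.47 (-1.35 ± 0.21, adjusted p = 1.38e-04), and Trpm8, the cold sensor, changed by -1.22 ± 0.23. P2rx3, the ATP-gated channel of nociceptors, gave 0.35 ± 0.27 and did not pass. For Accn1, the name on the array for the acid sensor Asic2, the brighter probe fell by 0.88 and a dimmer one rose by 0.67, so the gene's direction was not settled.

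Of 27 receptors for opioids, peptides and amines, 8 fell and 2 rose. Cckbr and P2ry12, a microglial and macrophage receptor (0.66 ± 0.16), were the 2 that rose. The mu opioid receptor Oprm1 changed by -0.82 ± 0.27 (adjusted p = 0.0498) and the nociceptin receptor Oprl1 by -1.10 ± 0.16. P2ry1, a receptor for ADP, changed by -1.50, Sstr2 by -1.38 and Galr1 by -0.90. Oprd1 and Galr2 were well above background in no sample of either group. The neuropeptide Y receptors Npy1r (0.04), Npy2r (0.29) and Npy5r (0.29) did not pass, and Npy5r too was well above background in none of the 8.

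Neurotrophic factors and their receptors divided evenly, with 5 of 26 higher and 5 lower. Gfra1, the GDNF co-receptor, went from 9.07, 9.26, 9.05 and 9.19 to 10.61, 10.51, 10.64 and 10.58 (1.44 ± 0.13, adjusted p = 1.13e-07), and Gfra3, the artemin co-receptor, rose by 0.99 ± 0.12. The neurturin co-receptor Gfra2, by contrast, fell from 7.55, 7.75, 7.70 and 7.81 to 6.21, 6.21, 6.35 and 6.20 (-1.46 ± 0.26, adjusted p = 5.69e-04). Their shared signalling partner Ret gave 0.02 and did not pass. The neurotrophin receptors Ntrk2 (-0.17) and Ntrk3 (-0.19) did not pass. Il6, a cytokine of the gp130 family, rose by 2.09 ± 0.21, and Bdnf by 0.57. Ntf3 was above background in 3 of 4 controls and in none of the day 5 samples, 2.2-fold lower with the processing used here (adjusted p = 0.0083 by limma). Its log2 change was as small as -0.26 over the alternatives, and it did not pass with controls 1 and 3 alone (adjusted p = 0.0687 by limma).

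Transcription factors that specify sensory neurons were lower or did not pass. Of 13, 6 fell and none rose. Isl2 went from 13.48, 13.37, 13.73 and 13.87 to 12.07, 12.42, 12.41 and 12.42 (-1.29 ± 0.23, adjusted p = 7.73e-04), Pou4f3 fell from 7.26, 7.20, 7.03 and 6.67 to 6.07, 5.93, 6.30 and 5.86 (adjusted p = 0.00547), Etv1 changed by -0.89 ± 0.16 and Isl1 by -0.71 ± 0.12. Runx1, which marks the nociceptor lineage (-0.69, adjusted p = 0.0521), and Pou4f1 (-0.56, adjusted p = 0.0924) did not pass. Of 24 synaptic vesicle genes, 10 fell and 1 rose. Cplx2, a complexin, changed by -1.13 ± 0.17, Vamp1 by -0.88 ± 0.11 (-0.23 with its probes averaged, adjusted p = 0.387), Rab3a by -0.80 ± 0.16 and Snap25 by -0.73 ± 0.14, and Syt4 rose by 0.64 ± 0.11. The glutamate transporter genes Slc17a6, Slc17a7 and Slc17a8 did not pass.

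Cytoskeletal filaments went both ways. Nefh, the heavy neurofilament of large neurons, read 16.05, 16.17, 16.27 and 15.79 against 15.18, 15.31, 15.41 and 15.46 (-0.73 ± 0.14, adjusted p = 9.09e-04), and Nefm fell by 0.56 ± 0.14, with groups that overlapped and an adjusted p of 0.0757 on the 8 WT samples alone. Nefl (-0.53) and peripherin, Prph (-0.17), did not pass. Ina rose by 0.58 ± 0.08. Gfap, which satellite glia are known to raise, was above background in 1 of 4 controls and all 4 day 5 samples, with a change of 1.11 ± 0.33 (adjusted p = 0.0295), and it did not pass with the 8 WT samples alone (adjusted p = 0.0558). In WT control replicate 4 Nefm and Etv1 were lower than in the other 3 controls, and both changes were larger against controls 1 and 3, at -0.73 and -1.06.

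Glial genes showed few calls. By their brightest probes, none of 16 Schwann cell myelin genes passed, adjusted or at an unadjusted p under 0.05 by limma. For 1 of them another probe passed the adjusted threshold. The median change of the 16 was 0.06, with Mbp at 0.05. Of 11 satellite glia markers, Glul, glutamine synthetase, rose by 0.62 ± 0.10, and S100b fell by 0.49 ± 0.14, although S100b did not pass with the 8 samples alone (adjusted p = 0.0906). The connexin Gja1 (-0.30), the glutamate transporter Slc1a3 (0.06), Kcnj10 (-0.10) and Fabp7 (-0.32) did not pass. Of 22 genes of cholesterol synthesis and uptake, 4 fell, among them Stard4 (-0.69 ± 0.13) and Dhcr7 (-0.55 ± 0.12), and none rose.

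Macrophage markers rose nearly throughout. Of 20, 19 rose, all 19 at least 2-fold, against 2.41% of all genes, and none fell (median change 1.71). Trem2, a lipid-sensing receptor of macrophages and microglia, went from 7.28, 7.48, 7.74 and 7.85 to 10.20, 9.89, 10.16 and 10.003 (2.48 ± 0.17, adjusted p = 3.66e-09). Ctss, the lysosomal protease cathepsin S, went from 10.04, 9.79, 10.17 and 10.73 to 12.28, 12.03, 12.39 and 12.29 (2.06 ± 0.24). The cell surface marker F4/80, Emr1 on the array, rose by 1.997, Mrc1, the mannose receptor CD206, by 1.97, Csf1r, the receptor for CSF1, by 1.83, Cx3cr1 by 1.80, Aif1, which encodes IBA1, by 1.68 and Cd68 by 1.62. The integrin subunit Itgb2 gave 0.39 and did not pass. Summed over the list, brightness ranged from 10853 to 17768 in control and from 36202 to 48444 on day 5, with no overlap, a ratio of means of 2.97. With controls 1 and 3 alone, 18 of the 20 passed.

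Csf1, the growth factor that CSF1R binds and that injured sensory neurons are known to make, went from 8.43, 8.69, 8.25 and 8.80 to 11.63, 11.48, 11.45 and 11.35, a rise of 2.94 ± 0.17 (adjusted p = 2.35e-10). Of 28 chemokines, cytokines and their receptors, 13 rose and none fell. Ccl8 rose by 4.38 ± 0.33, Ccl12 by 2.25 ± 0.24, Ccl7 by 2.05 and the monocyte attractant Ccl2 by 1.13, with the receptor Ccr2 (1.15). Tnf (0.36) did not pass and was above background in 1 of 4 samples of each group, and the neuronal chemokine Cx3cl1 gave -0.08. The 3 chains of the complement initiator C1q rose together, C1qa by 2.22, C1qb by 2.15 and C1qc by 2.10, as did C3 by 1.17, 8 of 16 complement genes in all. Cd55, which shields cells from complement, was the 1 member that fell, from 10.06, 10.20, 10.32 and 10.64 to 8.85, 9.22, 9.13 and 9.15 (-1.22 ± 0.19, adjusted p = 1.30e-04, or 0.0725 with its probes averaged). Macrophages are a known source of C1q and of several of these chemokines, and the part of the macrophage markers in them was not tested.

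Other immune lists gave few calls. Of 7 class II antigen presentation genes, H2-Aa passed (0.73 ± 0.24, adjusted p = 0.0468) and 6 did not, with changes between 0.44 and 0.67, and H2-Aa did not pass with controls 1 and 3 alone. None of 18 lymphocyte markers passed by limma, 1 having an unadjusted p under 0.05, and their summed brightness ran from 670 to 788 in control and from 841 to 1048 on day 5. None of 9 neutrophil markers passed, adjusted or unadjusted, and their sums overlapped widely, from 17306 to 39639 in control and from 6396 to 77004 on day 5. The same held for 10 endothelial markers (median 0.12), 5 erythrocyte genes (median -0.15) and 7 skeletal muscle genes (median -0.11), none of which passed at either level. Of 6 oligodendrocyte genes, which would mark carried-over spinal tissue, 4 were above background in no sample, none passed, and 1 had an unadjusted p under 0.05. Of 18 fibroblast and matrix genes, the membrane metalloprotease Mmp16 rose by 3.61 ± 0.15 and Timp1 by 2.58 ± 0.20, Timp2 fell by 0.50, and the collagens Col1a1 (0.17) and Col3a1 (0.28) did not pass.

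Of 20 stress response genes, 9 rose and none fell. Chac1 (2.38 ± 0.23), Trib3 (1.31), Atf4 (0.85), Ddit3 (0.81) and Asns (0.52), which belong to the ATF4 response to amino acid and endoplasmic reticulum stress, rose, as did Xbp1 (0.55, adjusted p = 0.0668 on the 8 WT samples alone), a factor of the unfolded protein response, whereas the endoplasmic reticulum chaperones Hspa5 (-0.03), Hsp90b1 (-0.22) and Calr (-0.08) did not pass. Cdkn1a, which encodes the cell cycle inhibitor p21, went from 10.49, 10.38, 10.18 and 10.49 to 12.80, 12.36, 12.69 and 12.49 (2.20 ± 0.19, adjusted p = 6.00e-08). Of 30 cell cycle genes, 7 rose and none fell, among them Ccnb2 (1.01 ± 0.26) and Ube2c (0.83 ± 0.22), but 2 rose with controls 1 and 3 alone, and Mki67 gave 0.69 (adjusted p = 0.21). For Top2a the brightest probe passed and a probe below background in all 8 samples passed in the other direction.

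Of 22 interferon response genes, 4 rose (Irf8, Oas2, Oas1a and Mx2), against 6.41% of all genes, and Isg15 and Ifit1 did not pass. With the 8 WT samples alone 2 of the 22 passed. Among 15 enzymes of tetrahydrobiopterin and polyamine synthesis, 5 rose and none fell. Gch1, the first enzyme of tetrahydrobiopterin synthesis and a gene tied to pain, went from 5.72, 5.46, 5.40 and 5.68 to 6.78, 6.42, 7.07 and 6.74 (1.19 ± 0.19, adjusted p = 2.03e-04), while the later enzymes Pts (0.18) and Spr (-0.22) did not pass. Odc1, which starts polyamine synthesis, rose by 1.21 ± 0.12 and Arg2 by 1.57 ± 0.17. Of 35 respiratory chain subunits, 2 fell and none rose, a smaller share than the 7.45% of all genes that were lower. Neither of these 2 passed with the 8 samples alone. The median change of the 35 was -0.20, and 17 had an unadjusted p under 0.05 by limma, against 6585 of all 27398 genes. Their summed brightness ran from 732903 to 832131 in control and from 661176 to 710403 on day 5, with no overlap. Among 9 reference genes, Gapdh (0.04) and Actb (0.19) did not pass, and Pgk1, a glycolytic enzyme often used as a reference, rose from 13.996, 13.93, 13.998 and 13.89 to 14.47, 14.50, 14.61 and 14.43 (0.55 ± 0.07, adjusted p = 7.32e-06).

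Some genes were measured on 1 side only. There were 114 genes well above background in none of the 4 controls and in all 4 day 5 samples, of which 98 passed, and no gene showed the reverse. Of the 98, 80 carried a gene symbol. Beyond Anxa10 and Grp, the largest values were those of Fgf3, a growth factor of development, at least 19.3-fold higher, and Taf7l, a germ-cell relative of a general transcription factor subunit, at least 18.4-fold. They were followed by Reg1, a secreted C-type lectin of the regenerating family (14.8-fold), Trim15 (14.2-fold) and Stfa2 (13.3-fold). Stfa2 is a cysteine protease inhibitor with near-identical relatives that a probe may not tell apart. Cd207, which encodes langerin of Langerhans cells, was 12.6-fold higher. For Reg1, Trim15, Stfa2 and Cd207 these are plain fold changes, from control values not well above background. All these values likewise hold for the processing used here. They were chosen for their size after the values were seen and carry no test of their own. Control replicate 4 had the lowest share of probes above background, which bears on the count of 114.

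Day 5 was also set against day 2, a comparison without the control samples. WT day 2 replicate 1 shared an array with WT day 5 replicate 4, replicate 4 with WT control replicate 2, and replicates 2 and 3 with KO day 2 samples. The part of the shared arrays was not tested. In this comparison, 153 genes were higher on day 5 (0.558%) and 41 lower (0.15%). Of the 153, 132 were also called higher on day 5 against control and 49 on day 2 against the same, shared controls. Of the 20 macrophage markers, 7 were higher on day 5 than on day 2 and none lower. Ms4a7, a membrane protein of macrophages, read 7.48, 7.65, 7.71 and 7.36 on day 2 and 9.85, 9.78, 9.78 and 9.71 on day 5, a difference of 2.23 (adjusted p = 2.86e-06), and Folr2, the folate receptor of resident macrophages, 5.72, 6.49, 6.39 and 4.69 and 8.27, 7.94, 8.004 and 8.02 (difference 2.24, adjusted p = 0.00337). Ms4a7 was at its control level (7.64, 7.31, 7.40 and 7.95) on day 2, and Folr2 on day 2 overlapped with control. Reg3b, a secreted lectin of the regenerating family, differed by 2.59 (adjusted p = 9.88e-04) and Ccl8 by 2.08 (adjusted p = 0.00337). Reg3b was well above background in none of the 4 controls, and its difference between day 5 and day 2 ran from 0.80 to 3.43 over the alternatives. Ccl17, at 2.14 (adjusted p = 0.0256), did not pass against control (1.07, adjusted p = 0.13), although it did against controls 1 and 3 alone (1.85, adjusted p = 0.0184). Fitted on the 8 lesioned WT samples alone, 37 genes passed, 32 higher and 5 lower on day 5, and Reg3b, Folr2, Ccl8 and Ccl17 did not, while Ms4a7 did.

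The genes lower on day 5 than on day 2 were led by acute phase proteins. Saa2, a serum amyloid A, read 9.84, 10.01, 10.19 and 9.81 on day 2 and 8.08, 7.47, 7.98 and 7.53 on day 5 (difference -2.20, adjusted p = 9.65e-05), with 6.26, 6.51, 5.96 and 6.08 in control, so that day 5 lay between both. Saa1 and Saa2 are near-identical genes that their probes may not separate. Saa3 differed by -2.20 and Saa1 by -1.81. Lce1g, of the late cornified envelope family, differed by -1.78. Dbp, a clock-controlled transcription factor that binds the same type of element as NFIL3, read 12.12, 12.15, 12.87 and 11.79 on day 2 against 10.84, 10.63, 10.84 and 10.82 on day 5 (difference -1.45, adjusted p = 0.0216) and 10.60, 10.95, 11.19 and 10.39 in control. The call was lost in 8 of 24 alternatives, with adjusted p values up to 0.0896. Its day 2 samples stood apart from both other groups. The time of day of tissue collection is not given in the sources used here. Atf3 (0.16), Sox11 (0.09), Jun (0.05) and Gap43 (0.71, adjusted p = 0.098) did not pass between day 2 and day 5. Of the sodium channels none passed in this comparison by limma, and of the potassium channels Kcnmb1 was lower on day 5 (-0.72, adjusted p = 0.0319).

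**Figure D5:**
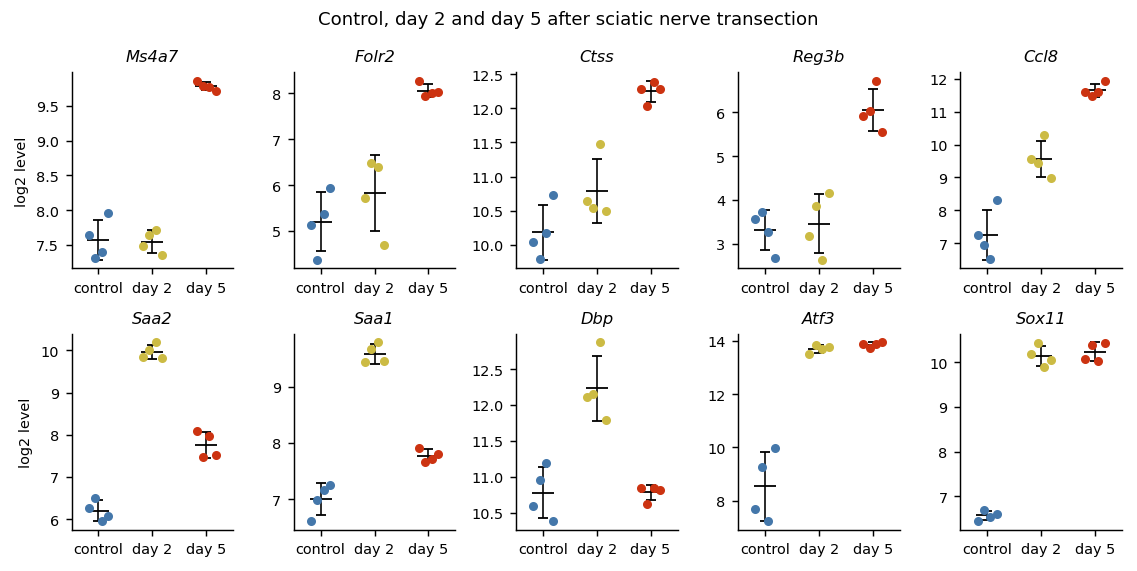
Log2 levels of 10 genes in WT control (blue), WT day 2 (yellow) and WT day 5 (red), 4 samples each, with the mean and SD in black and a vertical axis of its own in each panel. Ms4a7 and Reg3b are at control level on day 2 and higher on day 5, with Reg3b well above background in no control sample. Saa2 and Dbp are highest on day 2. The means of Atf3 and Sox11 on the 2 lesion days differ by 0.16 and 0.09.

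The same lesion in Nfil3 KO mice, with KO controls, gave the following values, over samples not shared with WT, although WT controls 1 and 3 and WT day 5 replicates 1 and 3 each shared an array with a KO sample of the same time. There, 3477 genes passed, 1659 higher and 1818 lower, of which 82.6% also passed in WT, and 75.6% of the 3798 WT genes passed in KO. Of those 3798, 3777 had the same direction in KO and none passed in both with opposite directions. Of the 661 WT genes at least 2-fold higher, 530 passed in KO at that size. The change of Gal was 4.48 in WT and 4.28 in KO, of Sox11 3.65 and 3.72, of Gap43 2.08 and 2.05, of Trem2 2.48 and 2.45, of Scn10a -1.15 and -1.14, of Tac1 -0.98 and -1.16, and of Cacna2d1 1.76 and 1.81. Tested as a difference between genotypes (the interaction at day 5), 0 genes passed (0%), the lowest adjusted p was 1.00 to 2 decimals, and 443 genes had an unadjusted p under 0.05 by limma. The brightest probe of Nfil3 changed by -0.25 in KO, and its difference between genotypes of -2.51 had an unadjusted p of 0.0402 by limma. In KO day 5 samples this probe was well above background only in replicates 1 and 3, which shared an array with a WT day 5 sample. A p that misses the threshold does not show that the genotypes responded alike. Without the library labelled KO control replicate 4, a choice made after the data were seen, 2941 genes passed in KO (1508 higher, 1433 lower) and 64.7% of the 3798 WT genes were among them. The change of Gal in KO was then 4.58 and that of Nfil3 0.72, and the difference of Nfil3 between genotypes was -1.54, with an unadjusted p of 0.108. No gene passed the test between genotypes by limma, 455 having an unadjusted p under 0.05, and 3709 genes passed in the WT comparison.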

How the data were processed

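RNA from L4 and L5 DRGs had been labelled with Cy3 or Cy5, and 12 whole mouse genome arrays (mm9 annotation) on 3 slides took 1 sample in each dye. The deposited scanner files hold the spot intensity and local background of 45018 spots per array, which the authors extracted with Feature Extraction 10.7.3.1, and each channel was treated as a sample, as the study's methods do. From these intensities the Edwards background correction (mean foreground, median background), quantile normalization over the 24 channels and log2 were computed in R 4.3.3 with limma 3.58.1. Control spots and outlier spots were left out, spots of a probe were averaged, and 417 probe values were missing. A limma model with 1 mean per group was fitted over the 24 samples and 41174 probes, with Benjamini-Hochberg adjustment over all probes and a threshold of 0.05. Where a gene had several probes, the brightest over the 24 samples was taken. The limma step was tested on simulated data.

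Named genes were Nfil3, the 10 highest and 10 lowest changes among genes with a symbol that passed, did not overlap between groups and were well above background in all 4 brighter samples, up to 3 at each end of 32 gene lists, and the 5 highest and 5 lowest differences between day 5 and day 2. List members of textbook importance were named whether or not they passed. The members and lists were chosen with earlier results of these data known. For a gene well above background in none of the 4 dimmer samples, each dim value was compared with the lowest signal among probes well above background in that sample. The higher of the 2 was used, which gives a lower bound where the gene's own value lay below that signal. Where no dim value did, as for Anxa10, the result equals the plain fold change and is no bound. The number of arrays limits the precision. The sources used here call the replicates independent, without linking samples to animals. Replicate numbers were not taken as pairs, since same-numbered control and day 5 deviations correlated at 0.209, -0.0645, 0.0490 and 0.0798, and replicates 1 and 2 were Cy3 and 3 and 4 Cy5. Alternatives changed the background, signal, normalization, filters, blocks, samples and variance model, or left out each sample. Promoter windows came from RefSeq (GRCm38.p6), which held one for 57.6% of all genes. Some members of these lists are not reported here.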

Additional observations from a re-analysis of the deposited data

Results flagged for a closer look

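In 15 of 210 groups of 4 values, over 105 named genes, 1 sample stood apart from the other 3, by a gap beyond Dixon's 95% critical value for 4 samples. Chance flags about 1 in 20 groups. In the controls, replicate 4 was low for Htr3b (7.74, nearest 7.99), Cacna2d3 (9.45, nearest 9.84) and Nefm (14.14, nearest 14.69). Replicate 2 was low for Gfap (3.01, nearest 4.11), replicate 1 high for Cacna1h (8.13, nearest 7.65), and replicate 3 high for Cplx2 (13.46, nearest 13.24) and Ndufs3 (13.48, nearest 13.29). On day 5, replicate 1 was high for Timp1 (11.22, nearest 10.85) and low for Isl2 (12.07, nearest 12.41), and replicate 2 was low for Dbp (10.63, nearest 10.82). Replicate 3 was low for C1qa (10.11, nearest 10.45) and high for Gfra2 (6.35, nearest 6.21). Replicate 4 was low for Dpp10 (8.6, nearest 8.82) and Gfra3 (12.71, nearest 12.9), and high for C1qc (11.9, nearest 11.66). All values are log2 levels.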

How the results depend on the processing

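The count of genes past the threshold against control was within 1.5 times the 3798 reported, between 3076 and 4905, under every alternative other than leaving samples out, with the exception of control replicates 1 and 3 as the only controls (2384 genes, 1174 lower). Leaving out each of the 8 samples in turn gave 2934 to 3497 genes, 1401 to 1660 higher and 1471 to 1952 lower. No gene that passed did so in the other direction under any of these alternatives. The higher share of the genes that passed ran from 44.2% to 51.3%, and the median of all genes shifted to at most -0.0783. Day 5 against day 2 was less stable, with 194 genes in all. It gave 385 (288 higher, 97 lower) without background correction, 367 (275 and 92) with normexp, 304 (241 and 63) with the array as a random block, 37 (32 and 5) on the compared groups alone, and 65 lower with an intensity trend. Without each sample in turn it gave 81 to 215 genes, 68 to 173 higher and 13 to 42 lower, the fewest without WT day 5 replicate 1. The replicate block gave 3976 genes against control (1824 higher, 2152 lower) and 183 against day 2, and it changed no call of a named gene. Of 115 named values, 83 kept their direction and side of the threshold in every alternative. Nfil3 passed in 7 of 25, over a range of 1.96 to 2.44. Top2a reversed to -0.155 with its probes averaged. Dbp against control, which did not pass in any setting, reversed to -0.1087 with controls 1 and 3 alone and, with samples left out, to -0.05981, -0.1297, -0.01752, -0.01813 and -0.0112, over a range up to 0.1365. H2-Aa and Top2a passed in 15 of 25 settings, Gfap and Cacna1h in 17, S100b in 18 and Oas1a in 19, and Lce1g passed against day 2 in 12 of 24. The cause was not tested. Signal over background limits the dim genes, and 50 genes that passed were well above background in no WT sample.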

Other observations

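Genes of other functions moved too, and the following were chosen after their values were seen. Among neuronal genes of the uninjured ganglion outside the lists, Th, tyrosine hydroxylase of low-threshold C fibres, changed from a mean log2 level of 10.40 to 8.87, by -1.53 ± 0.32 (SE, n = 4 against 4), and Acpp, prostatic acid phosphatase of non-peptidergic nociceptors, by -1.45 ± 0.32. The glutamate receptor subunit Grik1 changed by -1.56 ± 0.30, the lysophosphatidic acid receptor Lpar3 by -1.41 ± 0.35 and the homeobox gene Hoxd1 by -1.42 ± 0.29. All 5 passed, at adjusted p values by limma between 0.00132 and 0.00897.

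Among genes that rose were several not usually listed with neurons or macrophages. Csta, which encodes the cysteine protease inhibitor cystatin A, rose by 4.32 ± 0.17, Car3, carbonic anhydrase 3 of muscle and fat, by 3.84 ± 0.24, Fst, the activin antagonist follistatin, by 3.77 ± 0.29, and Star, which brings cholesterol into mitochondria for steroid synthesis, by 3.45 ± 0.19. The metalloprotease Adam8 rose by 3.04 ± 0.14 and the proteoglycan Sdc1 by 2.97 ± 0.15. Which cells these came from was not tested.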
